A study of Arabidopsis thaliana with 4 samples.

Results

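The XTH genes and the expansin genes encode secreted proteins that loosen and remodel the plant cell wall, and their transcripts were measured in *Arabidopsis thaliana* seedlings with and without added auxin. A gene was taken as a member when an array probe set named it alone and its symbol was XTH, EXPA, EXPB, EXLA or EXLB followed by a number. The name came from the array's annotation or, where that gave none, from the gene lists that accompany the study. This rule found 33 genes, 12 XTH and 21 expansin genes, among 22746 tested probe sets. Each of the 33 genes had 1 probe set, and 0 of these probe sets carried the suffix with which the array's design marks sequence shared between genes. RefSeq lists 63 genes with such symbols, so 30 of them (18 XTH and 12 expansin genes) had no probe set named here and were not analysed.

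All seedlings were of the Columbia wild type, Col-0, grown for 5 days in light, and the labels name no mutation or transgene. The mock group (2 arrays) lay in water for 2 h, and the IAA group (2 arrays) lay for the same time in water to which the natural auxin indole-3-acetic acid (IAA) had been added at 10 µM. RNA of whole seedlings was measured, so each value averages over root, hypocotyl and cotyledons. Fewer cells of a type and less RNA per cell therefore cannot be told apart.

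The growing plant cell wall is a network of cellulose microfibrils held in a matrix of xyloglucan and pectin. XTH enzymes (xyloglucan endotransglucosylase/hydrolases) cut xyloglucan chains and either rejoin them to other chains or hydrolyse them. They are commonly sorted into a group I, a group II and a group III. Expansins have no known enzymatic activity on these polymers and loosen the contacts between cellulose and matrix in acidic walls. The families are the α-expansins (EXPA), the β-expansins (EXPB), known best as grass pollen allergens, and the expansin-like genes (EXLA and EXLB), whose wall activity is not established. Auxin promotes elongation in shoots partly by acidifying the wall, a condition under which expansins act.

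The arrays gave RMA expression values on a linear scale with medians between 62.1 and 63.5. Across probe sets, arrays of 1 group were more alike (r of log2 values 0.997 for mock and 0.994 for IAA) than arrays of different groups (0.988 or less), which describes probe sets and not replicates. All 5 auxin-response genes used as controls (*IAA5*, *IAA19*, *SAUR15*, *IAA1* and *GH3.3*) rose, with log2 changes from 3.22 for *IAA5* to 7.21 for *GH3.3*, though the study's auxin lists hold all of them. A value at or below 37.6, the highest reading of 27 control probe sets for *Bacillus* genes, is called near background below. The second highest of these controls read 19.2, so values between 19.2 and 37.6 may still be signal. According to the methods the replicates were biologically independent, and their number, 2 per group, limits the precision of every value.

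IAA raised transcripts of 10 of the 33 genes, 5 XTH and 5 expansin genes, and lowered that of 1, *XTH26*. The remaining 22 were not called. A gene was called when its limma p, adjusted over all 22746 probe sets, was below 0.1 and B, the log odds that it changed, was above 0. By the same rule 1.48% of all probe sets were called higher and 0.374% lower. The counts of members depend on how probe sets were named. Of 27 members named by the array's annotation, 6 rose and 1 fell, where 1.2% of all 13513 probe sets so named were called higher. Of 4 named through the lists of brassinosteroid-regulated genes 2 rose, where 18.5% of the 335 probe sets named that way did. The remaining 2, *EXPA1* and *EXPA11*, were named through the auxin lists, and the study drew these up from the same arrays. Every called member, however it was named, stands in those lists, so none of these calls is independent evidence. Among the 8245 probe sets left without a name 1 was called, so the share called among the named genes may exceed that of the whole families.

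**Figure D1:**
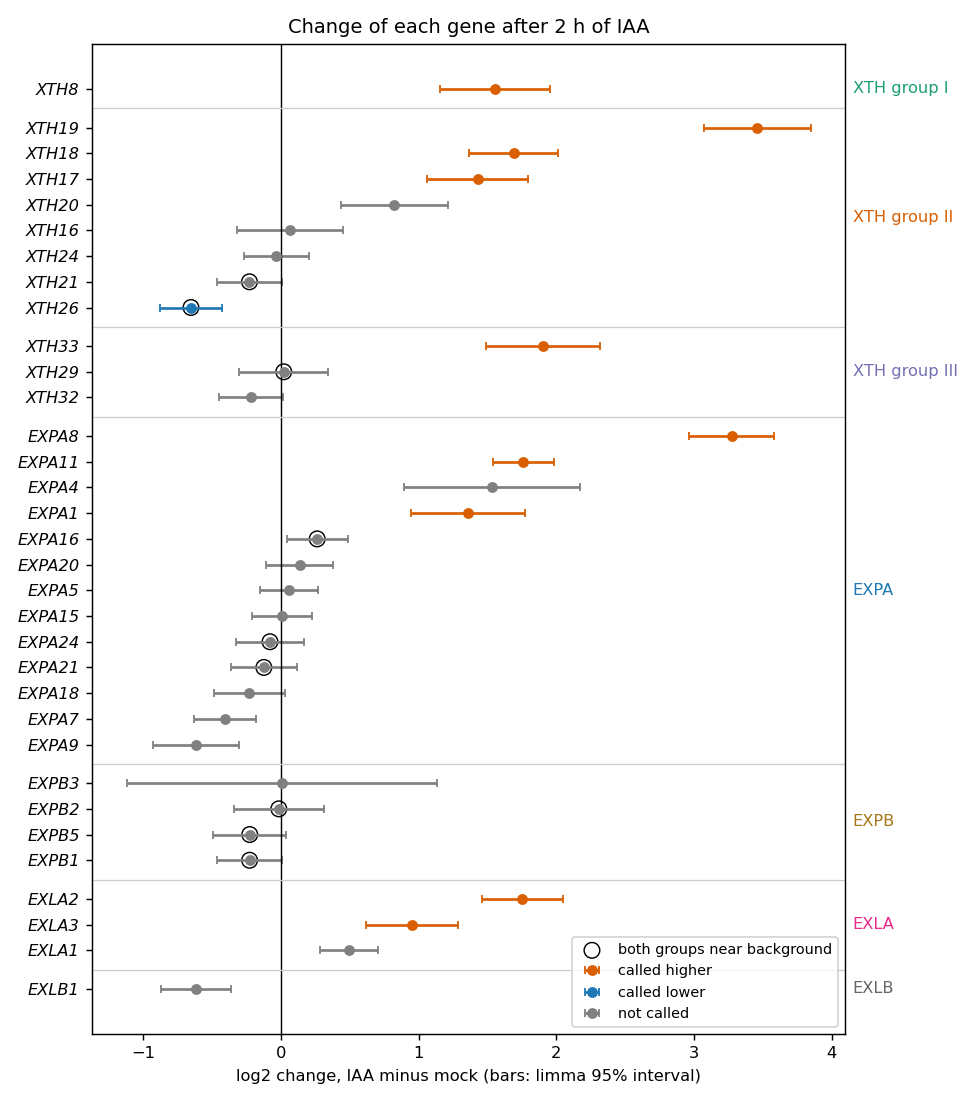
Log2 change (IAA minus mock, horizontal axis) of each of the 33 genes, ordered by subfamily, with points for the limma estimate and bars for its 95% interval over 2 arrays per group. Called increases are orange, the called decrease blue, and rings mark genes whose group means both lay near background. XTH19 (3.46, from a mock level near background) and EXPA8 (3.28) lie far to the right, and the root hair genes EXPA18, EXPA7 and XTH26 lie to the left of 0.

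Group II of the XTH genes had 8 members measured. Of these 3 rose, 1 fell and 4 were not called, and the group's median log2 change was 0.45, against -0.02 over all probe sets. *XTH17*, *XTH18*, *XTH19* and *XTH20* form a branch of closely related genes that are known for expression in the root. *XTH19* read 18.3 and 24.8 in the mock arrays and 234 and 235 in the IAA arrays. Its mock mean lay near background, so the rise is given as at least 6.23-fold, the IAA mean over 37.6. As measured the log2 change was 3.46 ± 0.16 (SE, limma adjusted p = 0.000698), and with 64 added before the log it was 1.80. *XTH18* rose from 330 and 395 to 1084 and 1250. Both IAA arrays thus lay far above both mock arrays, and the rise was 3.23-fold (log2 change 1.69 ± 0.13 SE, limma adjusted p = 0.00447). *XTH17* rose from 112 and 144 to 366 and 320, a 2.69-fold increase (log2 change 1.43 ± 0.15 SE, limma adjusted p = 0.0119), which was not called with the replicate number as a block. *XTH20* also read higher in both IAA arrays, 89.3 and 76.6 against 41.0 and 53.3. Its log2 change of 0.82 ± 0.16 (SE) had a limma adjusted p of 0.0628 but a B of -1.38, so it was not called.

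Of the other group II genes, 3 were not called. *XTH24*, also known as *MERI5*, read 5555 and 5653 in mock and 5221 and 5747 after IAA, so its groups overlapped. Its log2 change was -0.03, with a 95% interval from -0.27 to 0.20. *XTH16* overlapped as well, with 586 and 501 in mock and 498 and 647 after IAA (log2 change 0.07, 95% interval -0.32 to 0.45). For these genes the intervals leave out the increases seen in *XTH17*, *XTH18* and *XTH19*. *XTH21*, linked to primary root growth, lay near background in both groups (20.5 and 20.8, then 18.5 and 16.8) and was not called. *XTH26*, the group II gene that fell, is described with the root hair genes.

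**Figure D2:**
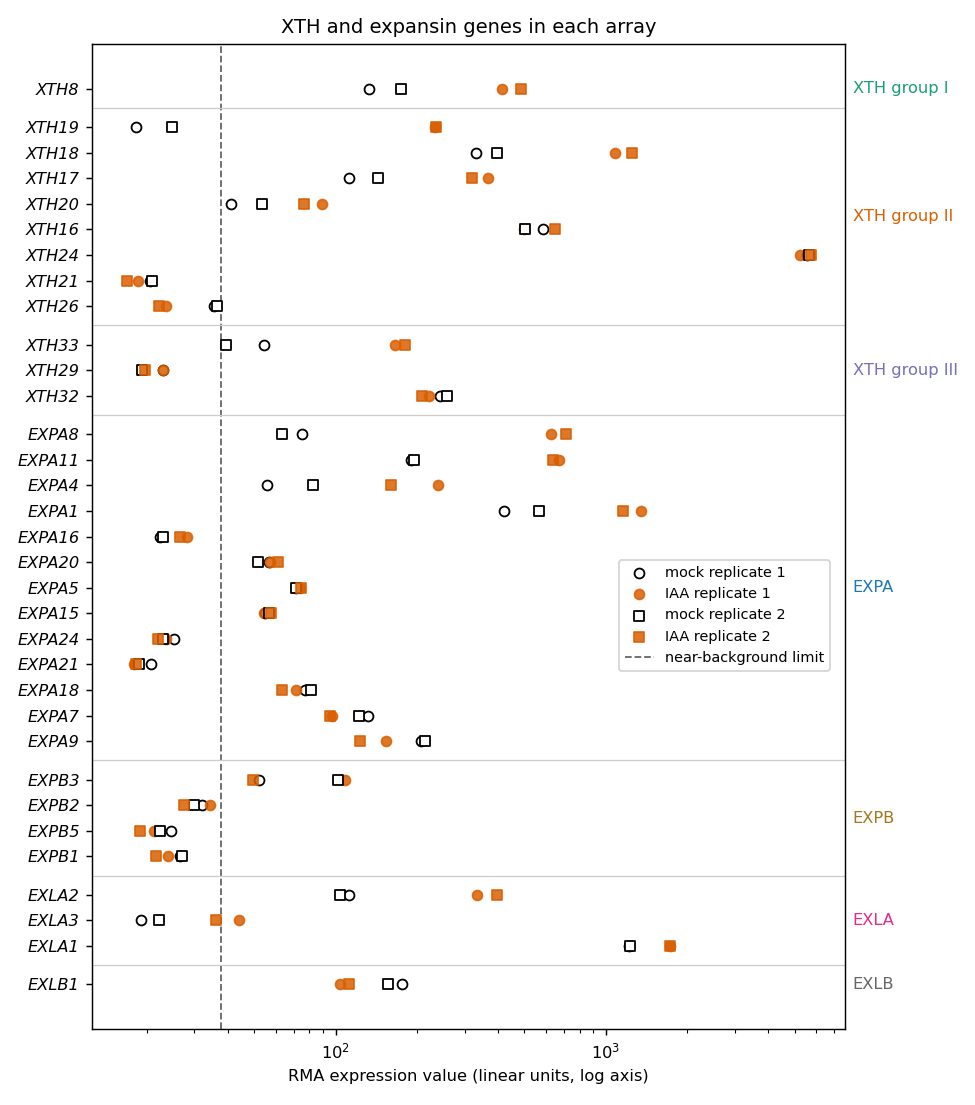
RMA expression value (horizontal axis, logarithmic, linear units) of each of the 33 genes in each array. Open symbols are mock and filled symbols IAA, circles replicate 1 and squares replicate 2, and the dashed line is the near-background limit of 37.6. In EXPA8 the mock arrays read 74.8 and 63.5 and the IAA arrays 625 and 714, while in EXPB3 each group holds 1 low and 1 high array.

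Each of the other XTH groups held 1 gene that rose. *XTH8*, the only group I gene measured, went from 133 and 175 to 412 and 484, a 2.93-fold increase (log2 change 1.55 ± 0.16 SE, limma adjusted p = 0.012). When log2 was taken of the value plus 64, which damps changes of dim genes, *XTH8* was no longer called (log2 change 1.24). Group III had 3 genes measured. *XTH33*, whose product is predicted to be held at the cell surface, rose from 54.3 and 39.2 to 166 and 180, which is 3.74-fold (log2 change 1.90 ± 0.17 SE, limma adjusted p = 0.00698). The call of *XTH33* was lost with the replicate number as a block. *XTH32* read 242 and 258 in mock and 222 and 208 after IAA, slightly lower in both IAA arrays, and was not called (log2 change -0.22, 95% interval -0.45 to 0.01). *XTH29* lay near background in every array, between 19.2 and 23.0. The interval of *XTH33*, from 1.49 to 2.32, lies above those of *XTH32* and *XTH29*.

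Some members are neighbors on the chromosome, which allows genes side by side to be compared. In the gene order of RefSeq, *XTH24* (AT4G30270), *XTH18* (AT4G30280) and *XTH19* (AT4G30290) follow each other on chromosome 4 with 0 protein-coding genes between them. Their log2 changes were -0.03, 1.69 and 3.46, and their 95% intervals (-0.27 to 0.20, 1.37 to 2.01, and 3.07 to 3.85) do not overlap. The value of *XTH19* rests on a mock level near background, but even its bound of at least 6.23-fold exceeds the 3.23-fold rise of *XTH18*. On chromosome 3, *EXLA3* (AT3G45960) and *EXLA1* (AT3G45970) adjoin in the same way, with log2 changes of 0.95 and 0.50. Their intervals, 0.62 to 1.29 and 0.29 to 0.71, overlap.

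**Figure D3:**
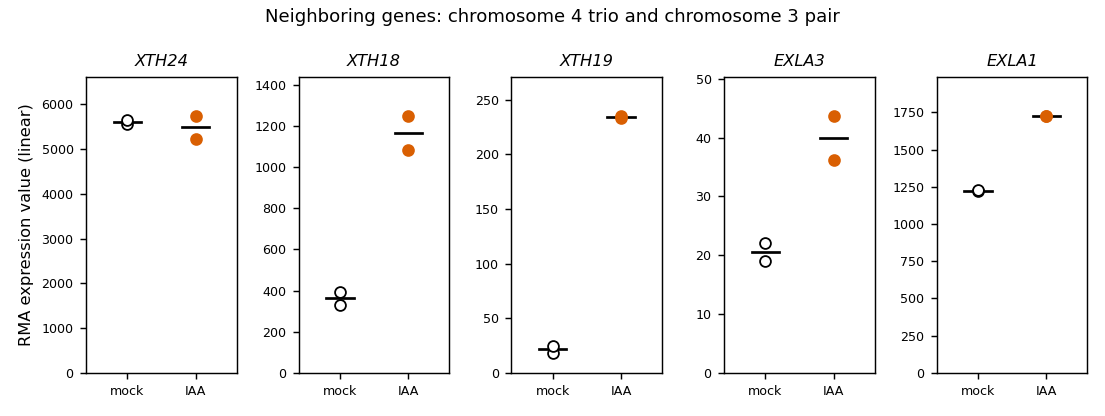
RMA expression values (vertical axes, linear, each from 0 on its own scale) of neighboring genes in the mock arrays (open) and IAA arrays (filled), with bars for the group means of 2 arrays. XTH24 reads between 5221 and 5747 in all arrays, XTH18 goes from 330 and 395 to 1084 and 1250, and XTH19 from 18.3 and 24.8 to 234 and 235. EXLA3 and EXLA1 both read higher in the IAA arrays.

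The α-expansins were the largest subfamily, with 13 genes measured. Of these, 3 rose, 0 fell by the call rule and 10 were not called, and the median log2 change was 0.06. *EXPA8* rose the most, from 74.8 and 63.5 in mock to 625 and 714 after IAA. Its means were 69.2 ± 8.01 and 669 ± 62.9 (SD, n = 2 in each group), a 9.68-fold difference. Its log2 change was 3.28 ± 0.12 (SE, limma adjusted p = 0.000398), the nineteenth largest increase of all probe sets. *EXPA11* went from 189 and 196 to 668 and 636 (3.39-fold, limma adjusted p = 0.00103). *EXPA1*, which is expressed in leaves and guard cells, went from 419 and 567 to 1346 and 1161 (2.57-fold, limma adjusted p = 0.0205). *EXPA1* was not called without mock replicate 1 (log2 change 1.14), with 64 added before the log (1.25) or with the replicate number as a block.

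The log2 change of *EXPA4* was estimated to be about as large as that of *EXPA1*, with more spread between arrays. It read 55.6 and 82.6 in mock and 240 and 160 after IAA, so the groups were apart. Its log2 change of 1.53 ± 0.26 (SE) had a limma adjusted p of 0.048 and a B of -0.72, and it was not called. Without IAA replicate 2 the log2 change was 1.83 and *EXPA4* was called higher. Outside the root hair genes, the other α-expansins were not called either. *EXPA5*, required for normal growth in response to brassinosteroids, read 71.1 and 71.6 and then 73.7 and 74.7 (log2 change 0.06, 95% interval -0.16 to 0.27). *EXPA15* and *EXPA20* had log2 changes of 0.01 and 0.14, and *EXPA16*, *EXPA21* and *EXPA24* lay near background in both groups. *EXPA9* read 207 and 214 in mock and 153 and 123 after IAA, lower in both IAA arrays, and the log2 change was -0.62 ± 0.13 (SE, limma adjusted p = 0.0742, B = -1.81). It was not called, except without IAA replicate 1, when its log2 change was -0.77.

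All 3 EXLA genes read higher in both IAA arrays than in both mock arrays, a pattern seen in 24.5% of all probe sets, and 2 were called. Their median log2 change was 0.95. *EXLA2* went from 112 and 104 to 333 and 397, which is 3.37-fold (log2 change 1.75 ± 0.12 SE, limma adjusted p = 0.00275). *EXLA3* rose from 19.1 and 22.1, near background, to 43.7 and 36.1. Its IAA mean of 39.9 barely passed the limit, so the rise is at least 1.06-fold, and the log2 change as measured was 0.95 ± 0.13 (SE, limma adjusted p = 0.0307). That call was lost without mock replicate 1, without mock replicate 2 and without IAA replicate 1, with log2 changes of 0.85, 1.06 and 0.82. It was also lost with 64 added before the log, where the log2 change was 0.30, and with the replicate number as a block. *EXLA1* read 1219 and 1228 in mock and 1728 and 1726 after IAA. Its replicates were thus very close, and its log2 change of 0.50 ± 0.09 (SE) had a limma adjusted p of 0.0501 and a B of -0.84. It was not called in the main fit. With 64 added before the log (log2 change 0.48) and with an intensity trend in the variance *EXLA1* was called higher.

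The only EXLB gene and the β-expansins showed no increase that was called. *EXLB1* read 176 and 156 in mock and 104 and 112 after IAA, lower in both IAA arrays (log2 change -0.62 ± 0.10 SE, limma adjusted p = 0.0482, B = -0.74), and was not called. None of the 4 β-expansins was called by limma, and none had an unadjusted p below 0.05. Of these, *EXPB1*, *EXPB2* and *EXPB5* lay near background in both groups. *EXPB3* read 51.8 and 102 in mock and 108 and 49.2 after IAA. Each group therefore held a low and a high array, and the log2 change of 0.01 has a 95% interval from -1.12 to 1.13, the widest of all 33 genes.

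The rule on B set the number of decreases. With an adjusted p below 0.1 alone, limma called 13 of the 33 genes higher and 4 lower, where 3.87% of all probe sets were called higher and 2.26% lower. The genes added were *EXPA4*, *XTH20* and *EXLA1* upward and *EXPA9*, *EXLB1* and *EXPA7* downward. Both IAA values exceeded both mock values in 16 of the 33 genes and below them in 10, against 24.5% and 29.0% of all probe sets, and the groups overlapped in 7.

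Root hairs are tubular outgrowths of root epidermal cells, and *EXPA7*, *EXPA18* and *XTH26* are known for expression in them. All 3 read lower in both IAA arrays, a pattern seen in 29.0% of all probe sets, and 1 was called. *EXPA7* read 132 and 122 in mock and 96.9 and 95 after IAA (log2 change -0.40 ± 0.09 SE, limma adjusted p = 0.0922, B = -2.30). *EXPA18* read 76.8 and 81.0 and then 71.6 and 63.1 (log2 change -0.23 ± 0.10 SE, limma adjusted p = 0.28). *XTH26* read 35.6 and 36.2 in mock and 23.5 and 22.1 after IAA, near background throughout, so no fold is given. Its log2 change was -0.65 ± 0.09 (SE, limma adjusted p = 0.028). The call of *XTH26* was lost without each array in turn, with log2 changes of -0.67 and -0.64 without mock replicates 1 and 2 and -0.70 and -0.61 without IAA replicates 1 and 2. The median log2 change of the 3 genes was -0.40, against 0.14 for the other 11 α-expansins and 0.82 for the other 7 genes of XTH group II. Lower readings were not particular to these genes. The 95% interval of *EXPA7* (-0.63 to -0.18) overlapped those of *EXPA9* (-0.93 to -0.30) and *EXLB1* (-0.87 to -0.36), and that of *XTH26* (-0.88 to -0.43) overlapped that of *XTH21* (-0.46 to 0.01). With 64 added before the log the change of *XTH26* was -0.20, and that call was lost too.

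Markers of other root genes are given beside these values. Of 31 symbols listed as root hair markers, only 4 genes outside the families had a named probe set. Of these 4, 3 fell, *PRP3* (log2 change -0.82), *COBL9* (-0.65) and *RHS13* (-0.63), and *LRX2* was not called (0.57). The 3 that fell were named through the auxin lists, all of whose genes were called, so their calls were fixed by the naming. *LRX2*, named another way, read higher in both IAA arrays. The summed value of the 4 markers was 1469 and 1421 in the mock arrays and 935 and 897 in the IAA arrays, and 0 of them read 0. Most of that sum came from *PRP3* and *RHS13*, so its fall was fixed by the naming too. Of 4 root markers outside hairs, *TIP2;3* (-1.13) and *CASP5* (-0.99), a protein of the endodermal Casparian strip, fell, while *PYK10* (-0.09) and *WER* (-0.21), near background in both groups, were not called. *TIP2;3* was named through the auxin lists and *CASP5* through the brassinosteroid lists, but *CASP5* also stands in the auxin lists. Over all probe sets 0.374% were called lower. The summed value of all 4 root markers outside hairs, most of it from *PYK10*, was 3227 and 3839 in mock and 3137 and 2709 after IAA. Both shoot photosynthesis markers measured, *RCA* (-0.01) and *PRK* (-0.20), were not called, with sums of 15680 and 15472 in mock and 14967 and 14615 after IAA. The part of cell type proportions in the lower root hair genes was not tested.

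**Figure D4:**
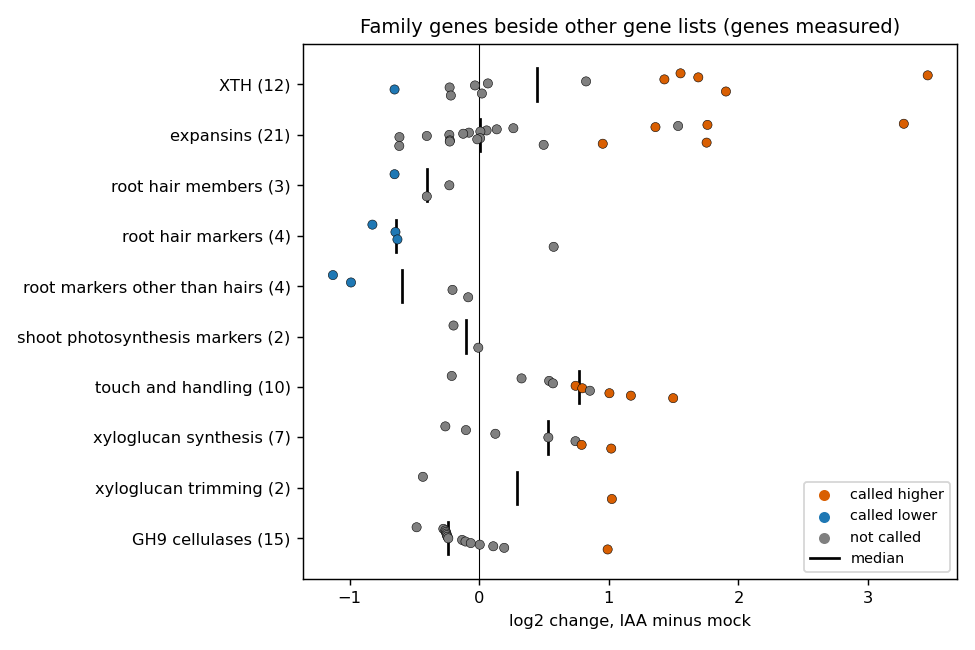
Log2 change (IAA minus mock, horizontal axis) of the genes of each list, with the number measured in brackets, 1 point per gene and a bar at the median. Orange points were called higher, blue points lower and gray points not called. The 3 root hair members and 3 of the 4 root hair markers lie below 0, while touch genes and genes of xyloglucan synthesis lie mostly above it. Those 3 markers were named through the auxin lists, and the called touch genes through the study's auxin or brassinosteroid lists.

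Genes that belong to the families by an alternative name only are given apart. *XTR6* (AT4G25810, also XTH23) rose from 229 and 257 to 654 and 953, which is 3.25-fold (log2 change 1.70 ± 0.19 SE, limma adjusted p = 0.0149). The call was lost without mock replicate 1, without mock replicate 2 and with 64 added before the log (log2 change 1.48). *TCH4* (AT5G57560, also XTH22), which was first found as a touch-induced gene, rose from 2638 and 2350 to 3959 and 4388. The increase was 1.67-fold (limma adjusted p = 0.033, B = 0.08), and its call was lost without mock replicate 1, without mock replicate 2 and without IAA replicate 2. That call was also lost with 64 added before the log and with the replicate number as a block. *EXGT-A3* (AT2G01850, also XTH27) read between 2040 and 2217 in all arrays and was not called, and AT4G30380 (also EXLB2) lay near background. With the XTH genes among these, 7 of 15 XTH genes rose. *XTR6* and *TCH4* were named through the brassinosteroid lists and also stand in the auxin lists. Of probe sets named through the brassinosteroid lists 18.5% were called higher, against 1.48% of all probe sets. Touch and handling genes were counted beside them. Of 10 measured, *TCH4* included, 5 rose and 5 were not called, with a median log2 change of 0.77. The 5 that rose were all named through the study's auxin or brassinosteroid lists, and the 5 not called by the array's annotation. *ERF6* (1.5) and *WRKY33* (1.17), both named through the auxin lists, had the largest changes, and *WRKY40* (1.00) and *TCH2* (0.80) also rose. *ZAT10* (symbol *STZ*, 0.85) was not called. The summed value of these 10 genes was 3722 and 3402 in mock and 5940 and 6610 after IAA. Most of that sum came from *TCH4*, itself an XTH gene. The part of touch and handling in the rise of the XTH genes was not tested.

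Genes that make and trim xyloglucan, on which XTH enzymes act, were counted in the same fit. Of 7 synthesis genes measured, 2 rose and 5 were not called, with a median log2 change of 0.53. By the same rule 1.48% of all probe sets were called higher. *CSLC4*, which builds the glucan backbone of xyloglucan, rose from 415 and 376 to 747 and 857 (log2 change 1.02 ± 0.11 SE, limma adjusted p = 0.0142). *XLT2*, which adds galactose to its side chains, rose from 57.3 in both mock arrays to 101 and 97.2 (log2 change 0.79). *XXT1*, a xylosyltransferase for the side chains, read higher in both IAA arrays but was not called (0.74, limma adjusted p = 0.074). Of the trimming enzymes, *BGAL10*, a galactosidase, rose from 114 and 108 to 216 and 236 (log2 change 1.02). The xylosidase gene *XYL1* was not called (-0.43). *XLT2*, *XXT1*, *BGAL10* and *XYL1* were named through the brassinosteroid lists. The genes called here, *CSLC4*, *XLT2* and *BGAL10*, all stand in the auxin lists, which the study drew up from the same arrays. Their calls are therefore not independent evidence.

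Cellulases of family GH9, which cut glucan chains of the wall, were counted as a family of other wall enzymes. Of 15 GH9 genes measured, 1 rose, *GH9C2*, from 45.3 and 47.5 to 104 and 81.2 (log2 change 0.99 ± 0.14 SE, limma adjusted p = 0.0305), and 14 were not called. Their median log2 change was -0.24, and 10 of the 15 lay near background in both groups. Over all probe sets 1.48% were called higher. *GH9C2* stands in the study's auxin lists, drawn up from the same arrays. *GH9C1* was farthest below 0 (-0.48, limma adjusted p = 0.0646, B = -1.47). No plasma membrane proton pump gene of the AHA family had a named probe set, so 0 of that list were measured.

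The families were also set among all 22746 probe sets. The middle 95% of all log2 changes ran from -0.50 to 0.61. Of the 33 genes, 12 lay above that range, 3 below it and 18 within it. Those above it were the 10 that rose, *EXPA4* and *XTH20*, and those below it were *XTH26*, *EXLB1* and *EXPA9*. Of the 10 that rose, 9 rose at least 2-fold as measured. Of the 33 genes, 9 lay near background in both groups. Of the 24 others, 10 rose, 0 fell and 14 were not called, a count in which genes raised from background by IAA are included by the way it was made.

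**Figure D5:**
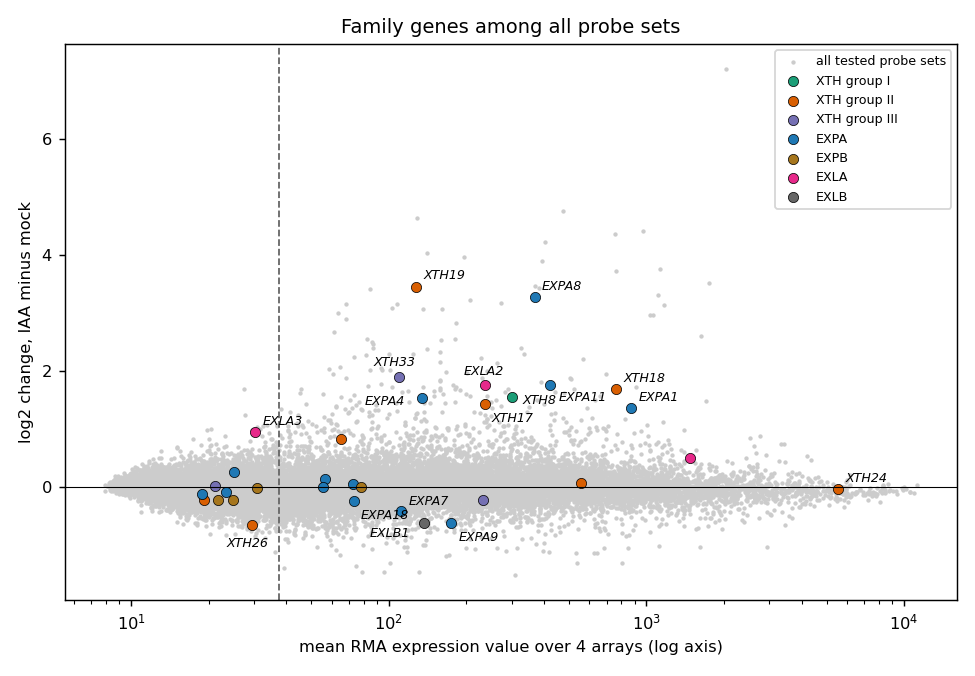
Log2 change (IAA minus mock, vertical axis) against the mean RMA expression value over 4 arrays (horizontal axis, logarithmic) for all 22746 tested probe sets (gray) and the 33 family genes (colored by subfamily). The dashed line marks the near-background limit of 37.6. EXPA8 lies among the largest increases of the array, XTH19 lies at 3.46 from a mock level near background, and XTH24, the brightest member, lies at -0.03.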

How the data were processed

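RNA came from whole seedlings, 1 Affymetrix ATH1 array per sample (4 arrays). The authors produced the deposited intensity values with rma of the Bioconductor affy package, which subtracts background, normalizes by quantiles and summarizes the probes of a set. The values are on a linear scale from 7.47 to 11463. The package version and the set of arrays normalized together are not given in the sources used here. Because quantile normalization gives all arrays 1 distribution, a change of most transcripts in 1 direction would not be visible. Groups came from the sample descriptions and replicate numbers from the titles.

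Values were taken to log2 without a pseudocount, and 64 control probe sets were left out. The fit used limma (lmFit, eBayes; version 3.58.1, R 4.3.3) with Benjamini-Hochberg adjustment over 22746 probe sets. As in the study's methods, calls needed both an adjusted p below 0.1 and a positive B. The code was tested on simulated data.

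Annotation symbols were updated through RefSeq (TAIR10.1). The array's annotation named 1 gene for 13513 probe sets and several for 503, of which 2 held an expansin or XTH gene. The study's lists, used for identity only, named 335 more through brassinosteroid and 150 through auxin lists. XTH groups follow gene number. Every called gene, the 3 root hair genes and, in each subfamily, the brightest and most changed genes were named by rule, and other genes are examples. The members and lists were chosen with earlier results of these data known, so no set test was made. The alternatives covered scaling, dim probe sets, a pseudocount of 64, the variance prior, the call rule, naming, the replicate number as a block and each array left out. Sequences were not used here.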

Additional observations from a re-analysis of the deposited data

How the results depend on the processing

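Of the 10 increases, those of *XTH18*, *XTH19*, *EXPA8*, *EXPA11* and *EXLA2* were called in all 11 other fits. After rescaling the arrays or a second quantile normalization, all 33 genes kept their calls. The 5 XTH increases fell to 3 and the 5 expansin increases to 3 with the replicate block, which lost *XTH17*, *XTH33*, *EXPA1* and *EXLA3*. With genes named by the array's annotation alone, 3 of 9 XTH and 3 of 18 expansin genes rose. That count uses the main fit and lost no call, but *XTH8*, *XTH17*, *EXPA1* and *EXPA11* are among the genes it leaves out. When 1 array was left out (a lone array was assumed to vary like the rest), XTH increases stayed at 5, expansin increases ran from 3 to 6, XTH decreases were 0 and expansin decreases ran from 0 to 1. The 1 XTH decrease, that of *XTH26*, was also lost with 64 added before the log, with the replicate block and with the crossed block. It was lost with an intensity trend in the variance too. Leaving out dim probe sets removed *XTH26* itself, so that fit could not call it. Without the rule on B there were 3 expansin decreases. The cause of the lost calls was not tested.

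Medians of log2 change moved as follows. With 64 added, EXPA had 0.030, EXLA 0.48 and XTH group II 0.23. Without dim probe sets, which removed 12 of the 33 genes, XTH group II had 1.13, group III 0.84 and EXPA 0.71. With the array's names alone EXPA had -0.035. With genes of alternative name added XTH group II had 0.78. Leaving out an array gave -0.30 to 0.0015 for EXPB, -0.11 to 0.15 for XTH group III and 0.82 to 1.09 for EXLA.

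The deviations of same-numbered arrays correlated at -0.19 over all probe sets, so the numbers were not taken to pair arrays. With so few arrays, crossed pairs necessarily show the same size with the opposite sign. With the replicate block limma called 145 probe sets higher and 10 lower in place of 337 and 85. With the numbers crossed, an alternative chosen after seeing the data, it called 299 and 86, *XTH20* and *EXPA4* among the higher. Signal near background limits 9 of the 33 genes.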
